A study of Homo sapiens with 6 samples.

Results

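TXNIP, the arrestin-domain genes ARRDC2, ARRDC3 and ARRDC4, CREBRF, PIK3IP1, KLHL24 and the yippee-like genes YPEL2, YPEL3 and YPEL5 were followed across 6 poly(A) RNA-seq libraries. These 10 genes were taken by symbol from the 23698 rows of the gene tables, and all 10 had a row. They were grouped under the description of genes that rise when nutrients or growth signals drop, which was not tested here. TXNIP and ARRDC4 are also targets of a glucose-sensing factor, so they need not follow that description for glucose. CREBRF was added for its difference between the libraries numbered 2. The RNA came from MV4-11, a human acute myeloid leukaemia cell line with an internal tandem duplication in FLT3, grown in medium with 10% fetal bovine serum. In 3 of them the cells carried a lentiviral hairpin (shRNA) that targets PRMT5, the main symmetric arginine methyltransferase. In the other 3 the cells carried a scrambled vector control, delivered in the same way. Both groups are stable transductions of a single line, and the labels do not say whether clones or pools of cells were used.

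TXNIP and the ARRDC proteins are alpha-arrestins, adaptors that bring ubiquitin ligases of the NEDD4 family to membrane proteins and so control which receptors and transporters stay at the cell surface. TXNIP also binds thioredoxin and limits glucose uptake, and its gene is switched on by the glucose-sensing factor MondoA (MLXIP) with its partner MLX. CREBRF, PIK3IP1 and KLHL24 act on other steps of growth and stress signalling, and the small zinc-binding YPEL proteins have been tied to arrest of the cell cycle. Several genes of this kind are known to be held low while PI3K and AKT signalling is active.

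Promoter sequence is shown for the 3 genes with a match to an E-box or the paired E-box-like element, the letters that MondoA and related factors are known to bind. The sequences are from RefSeq on GRCh38.p14, cover the 250 bases before an annotated start, and were matched for all 10 genes in 14 windows. The capitals in TXNIP mark a paired E-box-like element, searched as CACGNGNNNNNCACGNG on both strands, and a match to the forkhead motif GTAAACA. The capitals in ARRDC4 and CREBRF mark the E-box CACGTG. The TXNIP window is chr1:145996580-145996829 on the minus strand, that of ARRDC4 is chr15:97960453-97960702 and that of CREBRF is chr5:173056102-173056351, both on the plus strand.
TXNIP: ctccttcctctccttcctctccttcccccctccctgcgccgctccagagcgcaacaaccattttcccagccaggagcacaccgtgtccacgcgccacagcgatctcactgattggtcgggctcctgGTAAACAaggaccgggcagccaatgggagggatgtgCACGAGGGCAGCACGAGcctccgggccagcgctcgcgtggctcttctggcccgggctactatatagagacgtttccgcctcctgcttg
ARRDC4: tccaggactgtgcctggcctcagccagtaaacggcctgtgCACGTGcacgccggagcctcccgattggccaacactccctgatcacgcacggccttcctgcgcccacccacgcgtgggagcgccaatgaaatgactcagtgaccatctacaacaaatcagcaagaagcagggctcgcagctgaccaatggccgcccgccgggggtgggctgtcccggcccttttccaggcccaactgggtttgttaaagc
CREBRF: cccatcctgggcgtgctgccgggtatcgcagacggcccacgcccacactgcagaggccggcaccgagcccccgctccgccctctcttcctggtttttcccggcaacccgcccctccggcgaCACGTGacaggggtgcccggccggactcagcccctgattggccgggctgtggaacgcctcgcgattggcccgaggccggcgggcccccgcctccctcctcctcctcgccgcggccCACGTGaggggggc

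The paired element of TXNIP began 88 bases before the start. It was present in 16 of 35116 windows of all genes (0.0456%), and among the 10 genes TXNIP alone held it. That motif was chosen because elements of this form are known in TXNIP, so its match there is a description. The forkhead motif was found in 2 of the 14 windows of the members, of TXNIP and of ARRDC3, and in 2.98% of all windows. The E-box was found in 2 of the 14, of ARRDC4 and CREBRF, and in 6.34% of all windows, and the plain CCAAT letters in 8 of the 14 and in 32% of all windows. No binding was measured here, and a match is letters in a window only.

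The libraries held 16408484 to 19077106 estimated counts. PRMT5 had 103, 71.6 and 53 CPM (counts scaled to library size with TMM factors) with the PRMT5 hairpin, against 133, 53.2 and 158 CPM with the scrambled one. All such values follow the library numbers 1 to 3, so the middle scrambled value is always that of the library labelled control 2. That library, titled as a scrambled control, was thus at a knockdown level of PRMT5 and went against its label. Whether it was swapped or mislabelled was not tested, and each group difference that includes it depends on its label. The library labelled control 2 also stood apart across all genes. Its log2 CPM correlated with the other 5 libraries at 0.876 (control 3) to 0.923 (control 1), and those 5 among themselves at 0.952 to 0.995. The log2 difference (log2 ratio of knockdown over control, fitted with edgeR) of PRMT5 was −0.60 (95% confidence interval −1.60 to 0.41) with all 6 libraries. It was −0.94 without the library labelled control 2, a description only since that library was singled out by its PRMT5 level, and −0.40 without knockdown 3 and −0.29 without control 3. The results on the members are given with and without the library labelled control 2. All 12 marker genes listed for the myeloid leukaemia line passed the count filter, and among the markers of other cell types CD3D, CD3E, CD79A, HBB, PPBP and EPCAM were under 1 CPM in every library. The markers of other cell types summed to 83.3 to 95.2 CPM in the knockdown libraries and 72 to 104 CPM in the controls. PECAM1 alone had 74, 66.6 and 65.7 CPM with the PRMT5 hairpin, against 74.5, 20.6 and 56.6 CPM with the scrambled one. Which cells its reads came from was not tested. KRT8, KRT18 and PECAM1 had log2 differences of −1.43, −0.07 and 0.44, and −0.49, 0.27 and 0.07 with the library labelled control 2 left out. Of the 12 markers of the line 4 were higher, 8 were lower and none was called, with a median of −0.41 (−0.16 with that library left out). The 3 with the smallest p-values, MEIS1, HOXA10 and HOXA9, had −1.21, −0.68 and −0.89, and −0.44, −0.24 and −0.08 with it left out.

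TXNIP was the member with the deepest counts. It had 733, 700 and 281 CPM with the PRMT5 hairpin, against 880, 6031 and 248 CPM with the scrambled one. In the library labelled control 2 TXNIP took 0.531% of all counts, without any scaling, against 0.0258% to 0.0911% in the other 5. The groups overlapped, since all 3 knockdown libraries lay between controls 1 and 3. The means were 571 ± 252 CPM for the knockdown and 2386 ± 3172 CPM for the control group (SD, n = 3 each), the control SD being larger than its mean. In edgeR's quasi-likelihood model the log2 difference was −2.06 for TXNIP, with a standard error (SE) of 1.04, a 95% confidence interval of −4.49 to 0.37 and an adjusted p of 0.926. Without the library labelled control 2 it was 0.02 (95% confidence interval −1.38 to 1.42). In bulk RNA, fewer cells with a transcript and less of it per cell cannot be told apart.

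**Figure D1:**
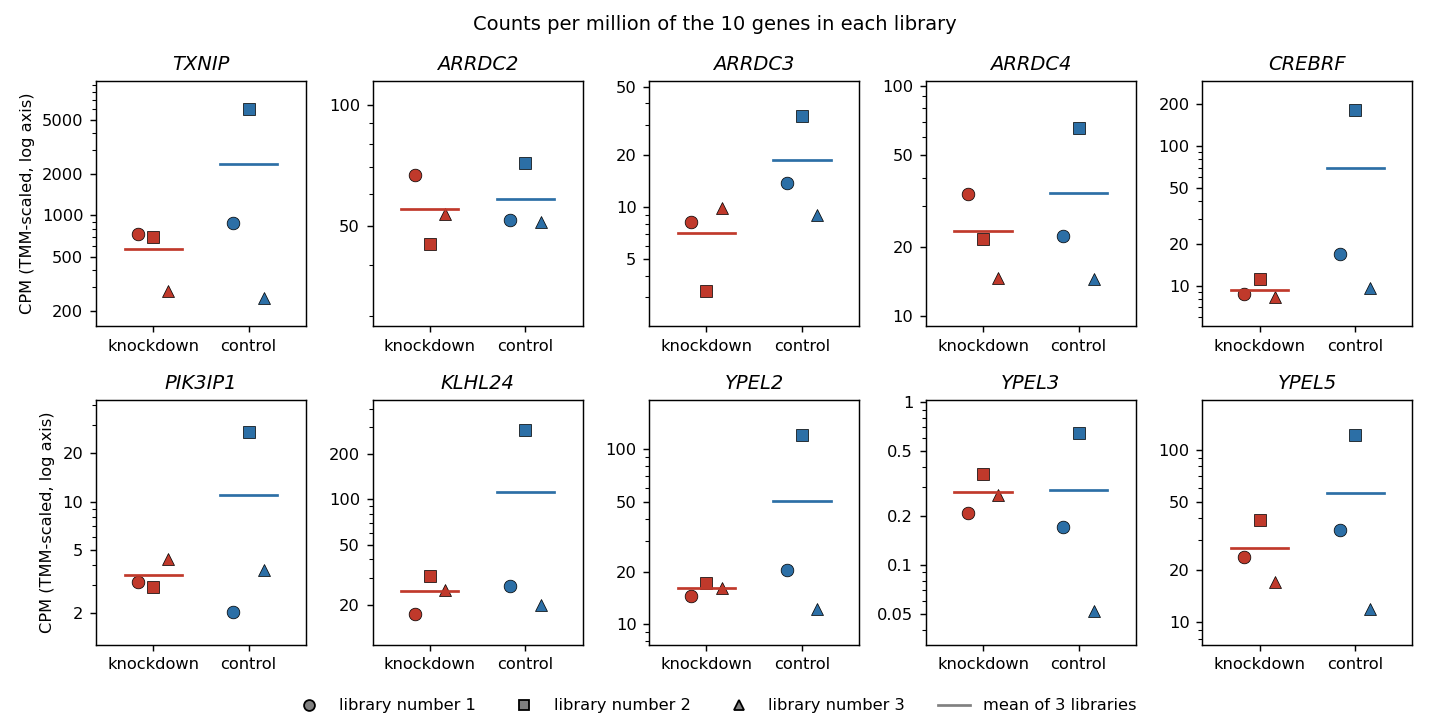
Each panel plots 1 gene as TMM-scaled CPM on a log axis, with the 3 knockdown libraries (red) left of the 3 control libraries (blue), the library number as the symbol and the group mean as a line. The square of the library labelled control 2 lies highest in every panel, with TXNIP at 6031 CPM and CREBRF at 182 CPM, while the other symbols of the groups overlap.

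Among the other alpha-arrestins, ARRDC2 was nearly level across the libraries. It had 67, 45.3 and 53.6 CPM with the PRMT5 hairpin, against 51.9, 71.5 and 51.3 CPM with the scrambled one. The log2 difference was −0.07 (SE 0.25, 95% confidence interval −0.65 to 0.50; adjusted p = 0.96, edgeR), and 0.10 (95% confidence interval −0.39 to 0.60) without the library labelled control 2. With the labels taken as given, either interval keeps a difference in ARRDC2 under 2-fold either way. A fit with the library labelled control 2 counted as a knockdown was not run.

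ARRDC3, an adaptor known for the internalisation of beta-adrenergic receptors and of an integrin, had 8.2, 3.28 and 9.89 CPM with the PRMT5 hairpin, against 13.8, 33.7 and 9.01 CPM with the scrambled one. Its lowest library was knockdown 2 and its highest the library labelled control 2, and knockdown 3 lay above control 3, so the groups overlapped. The log2 difference was −1.40 (SE 0.59, 95% confidence interval −2.78 to −0.02, adjusted p = 0.926, edgeR), and −0.67 (95% confidence interval −1.79 to 0.44) without the library labelled control 2. An antisense gene, ARRDC3-AS1, held 4.706 to 16 counts per library beside 53.88 to 519.5 counts of ARRDC3. Use of strand in the counting is not given, so some of these reads may belong to either gene.

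ARRDC4, which like TXNIP is a known MondoA target, had 34, 21.7 and 14.7 CPM with the PRMT5 hairpin, against 22.3, 65.6 and 14.5 CPM with the scrambled one. Knockdown 1 lay above controls 1 and 3, and both libraries numbered 3 were at the same low level. The log2 difference was −0.54 (SE 0.58, adjusted p = 0.926, edgeR) and turned to 0.36 (95% confidence interval −0.56 to 1.27) without the library labelled control 2.

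CREBRF binds the transcription factor CREB3 and promotes its breakdown. It had 8.67, 11.2 and 8.22 CPM with the PRMT5 hairpin, against 16.9, 182 and 9.58 CPM with the scrambled one. The library labelled control 2 was 10.8-fold above the next highest one. The log2 difference over all 6 libraries, −2.89, is given as a description with no test, because CREBRF was chosen for the contrast of the libraries numbered 2. In the libraries not used for that choice, knockdown 1 and 3 against controls 1 and 3, it was −0.65 (SE 0.35, 95% confidence interval −1.51 to 0.21) and missed the threshold (adjusted p = 1, edgeR). Knockdown 1 and 3, at 8.67 and 8.22 CPM, lay below both of those controls, the lower of which had 9.58 CPM. The share of all genes that do so was not counted, so nothing is read from it.

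PIK3IP1, a membrane protein that binds the catalytic subunit of PI3K and inhibits it, had 3.13, 2.92 and 4.38 CPM with the PRMT5 hairpin, against 2.04, 27.2 and 3.73 CPM with the scrambled one. The library labelled control 2 held 419.9 counts, and the other 5 held 36.41 to 81.18 counts, so counting error is larger for PIK3IP1 than for most of the members. The log2 difference was −1.66 (SE 0.91, adjusted p = 0.926, edgeR), and 0.27 (95% confidence interval −0.72 to 1.26) without that library.

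KLHL24, a Kelch protein that joins substrates to CUL3 ubiquitin ligases, had 17.4, 31 and 25 CPM with the PRMT5 hairpin, against 26.6, 287 and 19.9 CPM with the scrambled one. The 5 libraries other than the one labelled control 2 stayed within 1.78-fold of one another. The log2 difference was −2.19 (SE 0.98, adjusted p = 0.926, edgeR) and 0.08 (95% confidence interval −0.61 to 0.77) without the library labelled control 2.

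The YPEL genes encode small zinc-binding proteins, YPEL3 being a p53-inducible gene and YPEL5 a subunit of the CTLH ubiquitin ligase. YPEL2 had 14.6, 17.3 and 16.2 CPM with the PRMT5 hairpin, against 20.5, 119 and 12.3 CPM with the scrambled one. All 3 knockdown libraries lay between controls 1 and 3. Its log2 difference was −1.66 (SE 0.78, adjusted p = 0.926, edgeR), and −0.03 (95% confidence interval −0.68 to 0.62) without the library labelled control 2.

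YPEL5 had 24, 39.2 and 17.2 CPM with the PRMT5 hairpin, against 34.1, 122 and 11.9 CPM with the scrambled one. Its lowest values were those of the libraries numbered 3, 1 of each group. The log2 difference was −1.06 (SE 0.76, adjusted p = 0.926, edgeR) and 0.22 (95% confidence interval −0.97 to 1.42) without the library labelled control 2. YPEL3 held 4, 6 and 4.627 counts with the PRMT5 hairpin, against 2.725, 10 and 1 counts with the scrambled one. It did not pass the count filter and was not tested. A difference in YPEL3 was not detectable at this depth.

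The relatives outside the group were read from the same fit. YPEL1, on chromosome 22, had 7.36, 6.8 and 8.98 CPM with the PRMT5 hairpin, against 8.85, 7.91 and 9.06 CPM with the scrambled one, so the library labelled control 2 was not its highest. Reads may have been divided among those YPEL genes that resemble each other, and their likeness in sequence was not measured here. YPEL4 was near the floor, at 2 to 12.73 counts in the knockdown libraries and 5 to 47.35 counts in the controls, the highest being again the library labelled control 2. The alpha-arrestin ARRDC1 had 49.7, 42 and 66.2 CPM with the PRMT5 hairpin, against 47, 46.5 and 54.7 CPM with the scrambled one. Of the beta-arrestin genes, ARRB1 had 73.8, 101 and 105 CPM with the PRMT5 hairpin, against 115, 42.4 and 103 CPM with the scrambled one, and was lowest in the library labelled control 2. ARRB2 was highest in that library, 1.05-fold above the next. ARRDC5 was under 1 CPM everywhere.

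Set against all genes, no gene passed the test between the groups: 0 of 13668 genes (0%) had an adjusted p under 0.05 in edgeR, and none of the 8 members tested over all 6 libraries did. At an unadjusted p under 0.05 edgeR had 242 genes, DESeq2 461 and limma-voom 117, and neither of the other tools called a gene after adjustment. DESeq2 gave no adjusted p for 28 genes, KLHL24 among them, so the lack of a call for those genes in DESeq2 is not a test result. As a description that includes CREBRF, all 9 members that passed the filter had a log2 difference below 0, with a median of −1.66, while over all tested genes the median was 0.00 with 6847 of 13668 below 0. Without the library labelled control 2 the members' median was 0.08, with 6 above and 3 below 0. Without both libraries numbered 2 it was −0.13, with 3 above and 6 below 0. For no member were the knockdown libraries all above or all below the controls. Over all tested genes 3.14% had all knockdown libraries above all controls and 3.1% had them below.

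**Figure D2:**
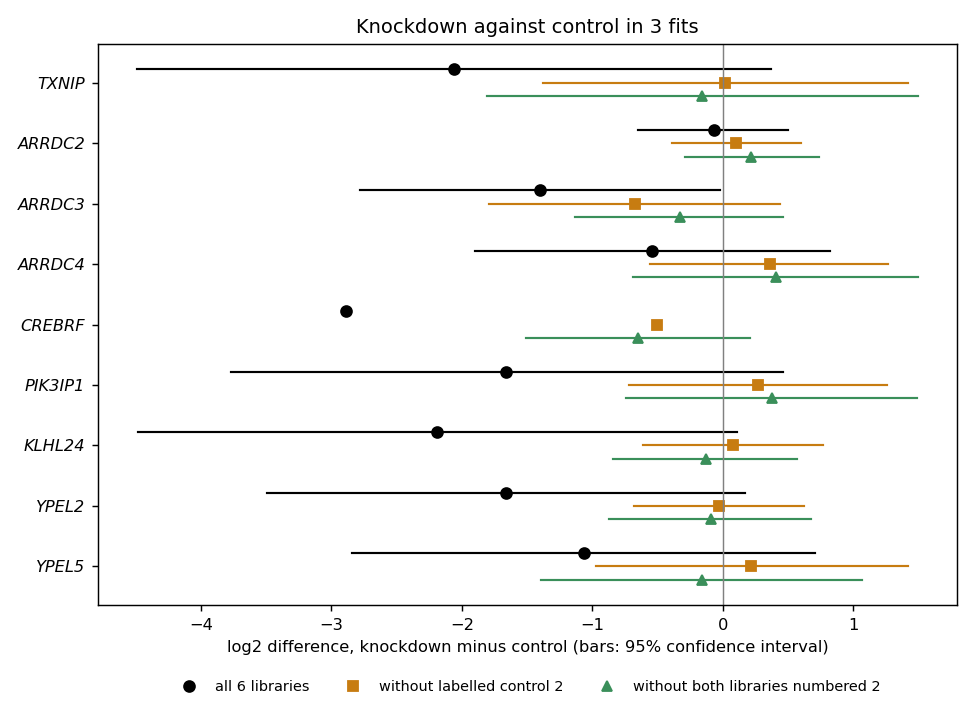
Log2 differences of knockdown minus control from edgeR for the 9 tested genes, with 95% confidence intervals as bars, in 3 fits: all 6 libraries (black), without the library labelled control 2 (orange) and without both libraries numbered 2 (green). CREBRF has a bar only in the last of these, its other values being descriptions. The black points run from −2.89 to −0.07 and the orange ones from −0.67 to 0.36, and all orange and green bars cross 0.

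The members' levels in the library labelled control 2 were read against the other 5 libraries. All 9 that passed the filter were highest in the library labelled control 2, against 34.4% of all tested genes. In it 7 of the 9 were more than 2-fold above every other library, against 7.44% of all tested genes. The exceptions were ARRDC2, 1.07-fold above the next library, and ARRDC4, 1.93-fold above it. CREBRF, KLHL24, TXNIP, PIK3IP1 and YPEL2 were 10.8, 9.28, 6.85, 6.22 and 5.8-fold above the next highest library, and YPEL5 and ARRDC3 3.12-fold and 2.45-fold. Because CREBRF was selected on this library, and the others with its values already known, nothing further is read from these counts.

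Across the other 5 libraries the members did not share a single pattern. TXNIP, YPEL5 and ARRDC4 were lowest in the libraries numbered 3 of both groups, and spanned 3.55-fold, 3.29-fold and 2.35-fold between their lowest and highest library. ARRDC3 spanned 4.2-fold, with knockdown 2 alone at the bottom. KLHL24, YPEL2 and ARRDC2 spanned 1.78-fold, 1.67-fold and 1.48-fold. PIK3IP1 was lowest in control 1, where CREBRF was at its highest value among these 5 libraries.

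Between libraries of the same number the differences depended on the number. In number 3, knockdown minus control was −0.22 to 0.53 over the 9 members with a median of 0.18, and no member was 2-fold higher or lower, where 0.527% and 0.285% of all tested genes were. In number 1 the range was −0.95 (CREBRF) to 0.61 (ARRDC4) with a median of −0.49, again with no member at 2-fold, where 1.76% of tested genes were at least 2-fold higher and 6.34% at least 2-fold lower. In number 2 all 9 were lower in the knockdown library, with −4.01 for CREBRF and a median of −3.11. There 8 of the 9 were at least 2-fold lower, as were 12.7% of all tested genes. That contrast chose CREBRF and supports nothing.

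**Figure D3:**
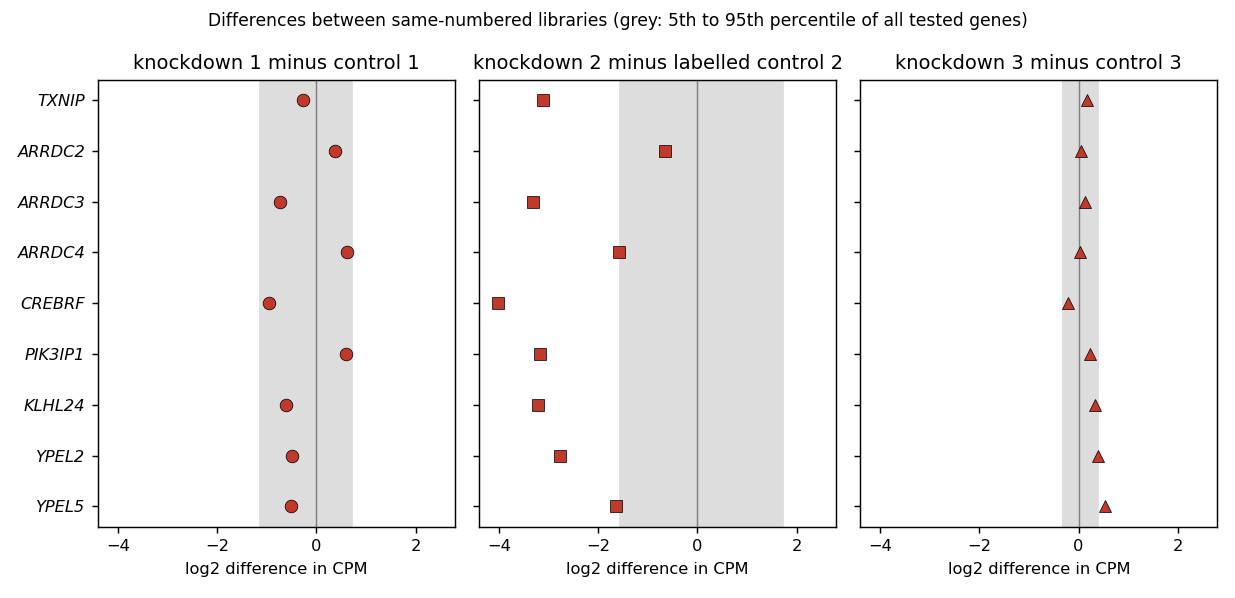
Log2 differences in CPM between the knockdown and the control library of the same number, 1 panel for each number and 1 point for each of the 9 tested genes. The grey band spans the 5th to the 95th percentile of all 13668 tested genes. Only in number 2, where the PRMT5 level of the control is at odds with its label, do members lie left of the band, from −4.01 for CREBRF. There ARRDC2 at −0.66 lies inside it. In number 3, YPEL5 at 0.53 lies right of the band, which ends at 0.40.

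The genes whose level ran closest to TXNIP over the 6 libraries were STX1A, CCNB1IP1, DENND5A, ORMDL3 and RPS7, with Pearson correlations of 0.9988, 0.9976, 0.9971, 0.9967 and 0.9958 on log2 CPM. STX1A, a syntaxin, had 13.1, 11.5 and 6.65 CPM with the PRMT5 hairpin, against 14.7, 48.6 and 6.32 CPM with the scrambled one. Those closest to CREBRF were CLDND1, MAGED2, TIAL1, ZNF83 and CREBZF, with correlations of 0.9994, 0.9993, 0.9988, 0.9983 and 0.9976. CLDND1 had 32.7, 39.1 and 33 CPM with the PRMT5 hairpin, against 48.6, 158 and 35.3 CPM with the scrambled one. With 6 points, 1 of them far from the rest, these correlations are a description with no test. RPS7 has pseudogene copies whose reads may be mixed with its own.

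With all 6 libraries the list medians of upstream regulators and partners lay closer to 0 than the members' median of −1.66. Without the library labelled control 2 the members' median was 0.08, and not every list lay closer to 0 than that. Of the 7 genes of glucose sensing and the thioredoxin system 6 were tested and none was called, with 4 higher and 2 lower and a median log2 difference of 0.20 (0.15 without the library labelled control 2). TXN, thioredoxin itself and the partner of TXNIP, had 209, 189 and 146 CPM with the PRMT5 hairpin, against 156, 116 and 150 CPM with the scrambled one. The reductases TXNRD1 and TXNRD2 had log2 differences of 0.44 (95% confidence interval −0.12 to 1.00) and 0.46 (95% confidence interval −0.14 to 1.06), both with an adjusted p of 0.926 in edgeR. TXN, TXNRD1 and TXNRD2 were each lowest in the library labelled control 2, in which TXNIP was highest. So were 36.7% of all tested genes, and these genes were named for the smallest p-values of their list. A link with TXNIP was not tested.

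None of the 9 ubiquitin ligase genes was called, with 4 higher and 5 lower (median −0.27, and −0.12 without the library labelled control 2). ITCH, a NEDD4-family ligase that binds TXNIP, had 64.2, 43.3 and 55.4 CPM with the PRMT5 hairpin, against 57.3, 78.6 and 61 CPM with the scrambled one. SMURF1 and SMURF2 had log2 differences of −0.57 and −0.43, and −0.13 and −0.14 without the library labelled control 2. Of 17 genes of the PI3K, AKT and mTOR pathway, on which PIK3IP1 acts, 8 were higher, 9 lower and none called (median −0.07, and 0.02 without the library labelled control 2). RICTOR of mTOR complex 2 had a log2 difference of −0.68 and RPTOR of mTOR complex 1 one of 0.52, and without the library labelled control 2 these were 0.08 and 0.21.

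CREB3, the target of CREBRF, had 7.62, 12.3 and 12.8 CPM with the PRMT5 hairpin, against 14.3, 24.3 and 14.4 CPM with the scrambled one. All 3 knockdown libraries lay below all 3 controls, as for 3.1% of tested genes, and the log2 difference of −0.70 (SE 0.34) missed the threshold (adjusted p = 0.926, edgeR). It was −0.39 (95% confidence interval −1.08 to 0.29) without the library labelled control 2. Of the 5 tested genes in the list of the CREB3 family and the glucocorticoid receptor, 1 was higher and 4 were lower, with a median of −0.12 (−0.09 without that library). CREB3L2 and CREB3L4 had −0.12 and −0.29, and −0.09 and −0.47 without it.

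Of the 24 tested genes in the list of FOXO factors and growth-arrest genes 22 were lower and 2 higher in the knockdown libraries. None was called, and the median log2 difference was −0.67. Over all tested genes 6847 of 13668 were lower. In the library labelled control 2, 20 of the 24 (83.3%) were at their highest, as were 34.4% of all tested genes. Without that library 15 of the 24 were higher and 9 lower, with a median of 0.11. BCL6, a transcriptional repressor, had 2.61, 5.04 and 5.03 CPM with the PRMT5 hairpin, against 6.47, 62 and 4.25 CPM with the scrambled one. CCNG2, an atypical cyclin of arrested cells, had 8.51, 24.7 and 17.4 CPM with the PRMT5 hairpin, against 43.6, 192 and 12.6 CPM with the scrambled one. KLF6, a zinc-finger factor, had 42, 36.6 and 28.5 CPM with the PRMT5 hairpin, against 49, 334 and 28.6 CPM with the scrambled one. The log2 differences of BCL6, CCNG2 and KLF6 were −2.52, −2.29 and −1.94, and −0.34, −0.74 and −0.12 with the library labelled control 2 left out.

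Proliferation markers ran the other way in the library labelled control 2. As the median over 12 genes of log2 CPM minus each gene's mean of the 6 libraries, they stood at −0.33, −0.37 and 0.60 with the PRMT5 hairpin, against 0.20, −1.08 and 0.72 with the scrambled one. The members' median was −0.35, −0.31 and −0.51 with the PRMT5 hairpin, against −0.11, 2.41 and −0.82 with the scrambled one. PCNA, the DNA polymerase clamp, had 280, 319 and 305 CPM with the PRMT5 hairpin, against 215, 107 and 304 CPM with the scrambled one. Between groups 4 of the 12 markers were higher, 8 were lower and none was called (median −0.15). That median was −0.43 without the library labelled control 2 and turned to 0.18 without control 3 and to 0.06 without knockdown 2. E2F1 and TOP2A had log2 differences of 0.36 and −0.33, and 0.11 and −0.53 without the library labelled control 2. The part of proliferation in the members' values was not tested.

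**Figure D4:**
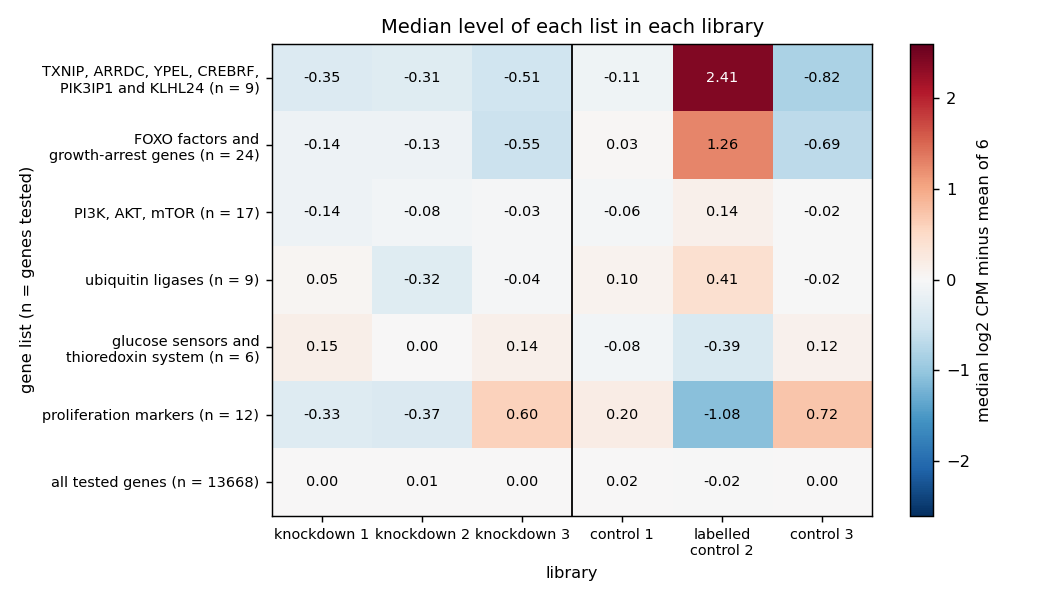
Median over the tested genes of each list of log2 CPM minus the gene's mean over the 6 libraries, with the knockdown libraries left of the line and the controls right of it, and colour giving the same value as the printed number. The library labelled control 2 stands at 2.41 for the members and 1.26 for FOXO and growth-arrest genes, at −1.08 for proliferation markers and at −0.02 over all tested genes.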

How the data were processed

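Poly(A) libraries were made from TriZol RNA of MV4-11 cells, per the labels' protocols. The authors deposited a table of estimated counts per gene for each library, with no scaling. CASAVA 1.9, TopHat2 version 2, edgeR and hg19 appear in the submitters' processing notes. What counted the reads, on which annotation and with what use of strand is not given in the sources at hand. Only 40.3% to 42.3% of values per library were whole numbers, so the tables hold fractions of reads. Multiplied by 51, at least 99.9958% of values were whole within 0.001. Values were rounded before any count model.

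Genes kept by filterByExpr (minimum count 10) entered the test of edgeR 4.0.16 (R 4.3.3), with TMM factors, glmQLFit and glmQLFTest with group as the only term, two-sided, Benjamini-Hochberg adjusted over all 13668 tested genes, threshold 0.05. The test itself gives no SE. Each SE was taken as the size of the log2 difference divided by the square root of the F statistic of the test. The confidence intervals are symmetric t intervals built from that SE, so both are approximations. Log2 CPM used a prior count of 2. The scripts were tested on simulated data. The alternatives tried were scaling by RLE, by the upper quartile or by total counts, 2 further filters, DESeq2 1.42.0, limma-voom (limma 3.58.1), the replicate number as a block and libraries left out. Nothing states that replicates were separate cultures, so the p-values reflect how much these libraries vary, possibly for technical reasons.

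Same-numbered libraries deviated together from their group means (correlations over genes of 0.127, 0.394 and 0.566 for numbers 1 to 3), so they were treated as pairs in that block. The pairing rests on the values, not on the labels, and knockdown 2 with control 1 reached 0.164.

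The members and the 10 other gene lists were chosen with earlier results of these data known. Named genes were the members, PRMT5, the remaining arrestin and YPEL genes, the 3 smallest p-values of each other list, and the 5 genes (mean of at least 5 CPM) most correlated with TXNIP and with CREBRF; ARRDC3-AS1 was added after its values were seen. Some genes of these lists are not reported here by name. Levels are not compared between genes, since no gene lengths of the counting annotation were used. RefSeq promoters are on GRCh38.p14 and were not joined to the counts by position.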

Additional observations from a re-analysis of the deposited data

How the results depend on the processing

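No gene was called under any of the 15 alternatives, the smallest adjusted p being 0.524, in edgeR without control 3. With the replicate number as a block, edgeR's smallest adjusted p was 0.709, 436 genes had an unadjusted p under 0.05 against 242 without it, TXNIP had a log2 difference of −0.98 and CREBRF of −1.67, and the block changed no call. Leaving out 1 library at a time gave log2 differences of −2.59 to 0.02 for TXNIP, −0.24 to 0.10 for ARRDC2, −0.92 to 0.36 for ARRDC4, −3.41 to −0.50 for CREBRF, −2.15 to 0.27 for PIK3IP1, −2.68 to 0.08 for KLHL24 and −1.54 to 0.22 for YPEL5. For these 7 genes the highest value was the one without the library labelled control 2. The same ranges were −0.11 to 0.23 for ARRDC1, −0.23 to 0.36 for ARRB1, −0.97 to 0.08 for RICTOR, −0.47 to 0.06 for CREB3L4, −0.30 to 0.27 for KRT18, −1.24 to 0.02 for CCNB1IP1, −0.79 to 0.05 for DENND5A and −0.81 to 0.13 for ORMDL3. List medians ranged over −2.06 to 0.08 for the members, −0.36 to −0.12 for the ubiquitin ligases, −0.15 to 0.02 for the PI3K, AKT and mTOR pathway −0.52 to −0.12 for the markers of the line and −0.55 to 0.18 for the proliferation markers, and PRMT5 ranged over −0.94 to −0.29. Without both libraries numbered 2 the sign turned for ARRDC2 (0.22), ARRDC4 (0.41), PIK3IP1 (0.38), ARRB1 (−0.29), ITCH (0.01), E2F1 (−0.04), KRT18 (0.06) and ORMDL3 (0.05). There CREBRF was at −0.65, the members' median at −0.13 and that of the ubiquitin ligases at 0.01. Under total counts KRT18 was at 0.0027. The causes were not tested. Scaling, filter and tool turned the direction of no member, but under limma-voom the members' median was −0.93, against −1.66, with TXNIP at −1.09, PIK3IP1 at −0.74 and KLHL24 at −1.13. With the block that median was −0.93 as well. Depth limits ARRDC5, YPEL3 and YPEL4, and counts without molecular identifiers carry amplification error as well.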
